A study of Mus musculus with 45 samples.

Results

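The comparison asks what the APP/PS1 transgenes add to the hippocampal transcriptome of mice that already carry mutant tau, on standard diet. It sets 4 mice that carry APP/PS1 and tau P301L together (A+T+/STD) against 6 mice with tau P301L alone (AwT+/STD), and its members are these 10 of the 45 mice of the series, taken by their labelled genotype and diet. All 10 were C57Bl/6J females that carried tau P301L, stayed on standard chow (STD, 5% fat and 0% cholesterol by weight) and were sacrificed at 13 months. Other mice of the series were moved at 7 months to a typical western diet (TWD, 21% fat and 0.15% cholesterol). The APP/PS1 line expresses a chimeric mouse and human mutant amyloid precursor protein and mutant PS1 under the mouse prion protein promoter, and the tau line expresses human tau with P301L under the CaMKII promoter, which is active in forebrain neurons. The contrast therefore adds 1 transgenic line on a background that is tau transgenic in both groups. Each sample is a separate animal, 2 A+T+/STD and 3 AwT+/STD mice were labelled batch 0, and 2 and 3 were labelled batch 1. The labels do not say what a batch is. They give the mice no replicate numbers either, and the numbers used here only name the mice of a group in the order of the series.

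Mice with APP/PS1 deposit β-amyloid in plaques in the hippocampus and cortex. Microglia, the resident macrophages of the brain, gather around plaques and take on a state called disease-associated microglia (DAM), in which genes of phagocytosis, lysosomal digestion and lipid handling are expressed at higher levels. The receptor Trem2 and its adaptor Tyrobp are needed for the full change. Astrocytes near plaques become reactive and produce more of the intermediate filament protein Gfap.

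The deposited values are poly(A) RNA measurements per gene on a log2-like scale, for 15897 genes. Differences are given as log2 fold changes, A+T+/STD minus AwT+/STD, with the standard error (SE) of the limma fit after ±, and a gene is said to have risen or fallen where its Benjamini-Hochberg adjusted p over all genes was below 0.05. Pearson correlations across genes between pairs of the 10 mice ran from 0.960 to 0.987, and the median value per mouse from 8.19 to 8.27. The number of reads per mouse is unknown from these values. The errors given reflect only how much mice varied within their groups. This spread was taken from all 8 groups of the series and moderated across genes by limma, not from the 10 mice alone. The sample is whole hippocampus, and more cells of a type cannot be told apart from more RNA per cell.

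The transgenes were checked first. App, which encodes the amyloid precursor protein, read 15.62, 15.41, 15.29 and 15.41 in the A+T+/STD mice and 14.33 to 14.55 (median 14.41) in the AwT+/STD mice, a log2 difference of 1.00 ± 0.10, adjusted p = 5.74e-09. Prnp, the prion protein gene whose promoter drives the transgenes, read 14.65, 14.78, 14.71 and 14.83 against 13.28 to 13.94 (median 13.65), a difference of 1.11 ± 0.096, adjusted p = 1.04e-10. For both genes every A+T+/STD mouse lay above every AwT+/STD mouse. Mapt, the tau gene, read 13.09, 12.84, 12.87 and 12.77 against 12.92 to 13.20 (median 13.01) (log2 difference -0.13 ± 0.12, adjusted p = 0.828), and Camk2a differed by -0.20 ± 0.15 (adjusted p = 0.82). The groups overlapped for Mapt and Camk2a, and both groups carry the tau transgene and its CaMKII promoter. The transgene is human tau, while reads were counted on mouse transcripts. In A+Tw/STD and AwTw/STD mice, without this transgene, Mapt averaged 12.90 in both groups, against 12.89 in A+T+/STD and 13.02 in AwT+/STD. Camk2a averaged 15.86 and 15.92 in those mice, against 15.75 in A+T+/STD and 15.95 in AwT+/STD. These 2 genes therefore do not test the tau label.

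A processed pseudogene next to Prnp also rose. Lamr1-ps1 lies on the plus strand of chromosome 2 at chr2:131904086-131904959 (GRCm38, GENCODE M21) and ends 4969 bases before the start of Prnp, which lies on the same strand at chr2:131909928-131938429. It read 6.04, 6.73, 6.46 and 6.40 in the A+T+/STD mice and 4.06 to 4.62 (median 4.49) in the AwT+/STD mice, a log2 difference of 2.02 ± 0.15, adjusted p = 1.46e-12. AwT+/STD replicates 2, 4 and 5 (batch 1) held the identical value 4.61801, and replicates 3 and 6 (batch 0) 4.06214. Such repeats point to the low end of the scale, so the lower group has little measured spread. The size of the difference and its SE are therefore uncertain. The difference was 2.43 in batch 0 alone and 1.60 in batch 1 alone. Of its 31-base words 0 occur in a transcript of another gene. Its difference was 1.78 ± 0.14 in mice without tau P301L on STD and 1.73 ± 0.14 in tau mice on TWD. Whether the transgene carries this stretch upstream of Prnp was not tested.

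**Figure D1:**
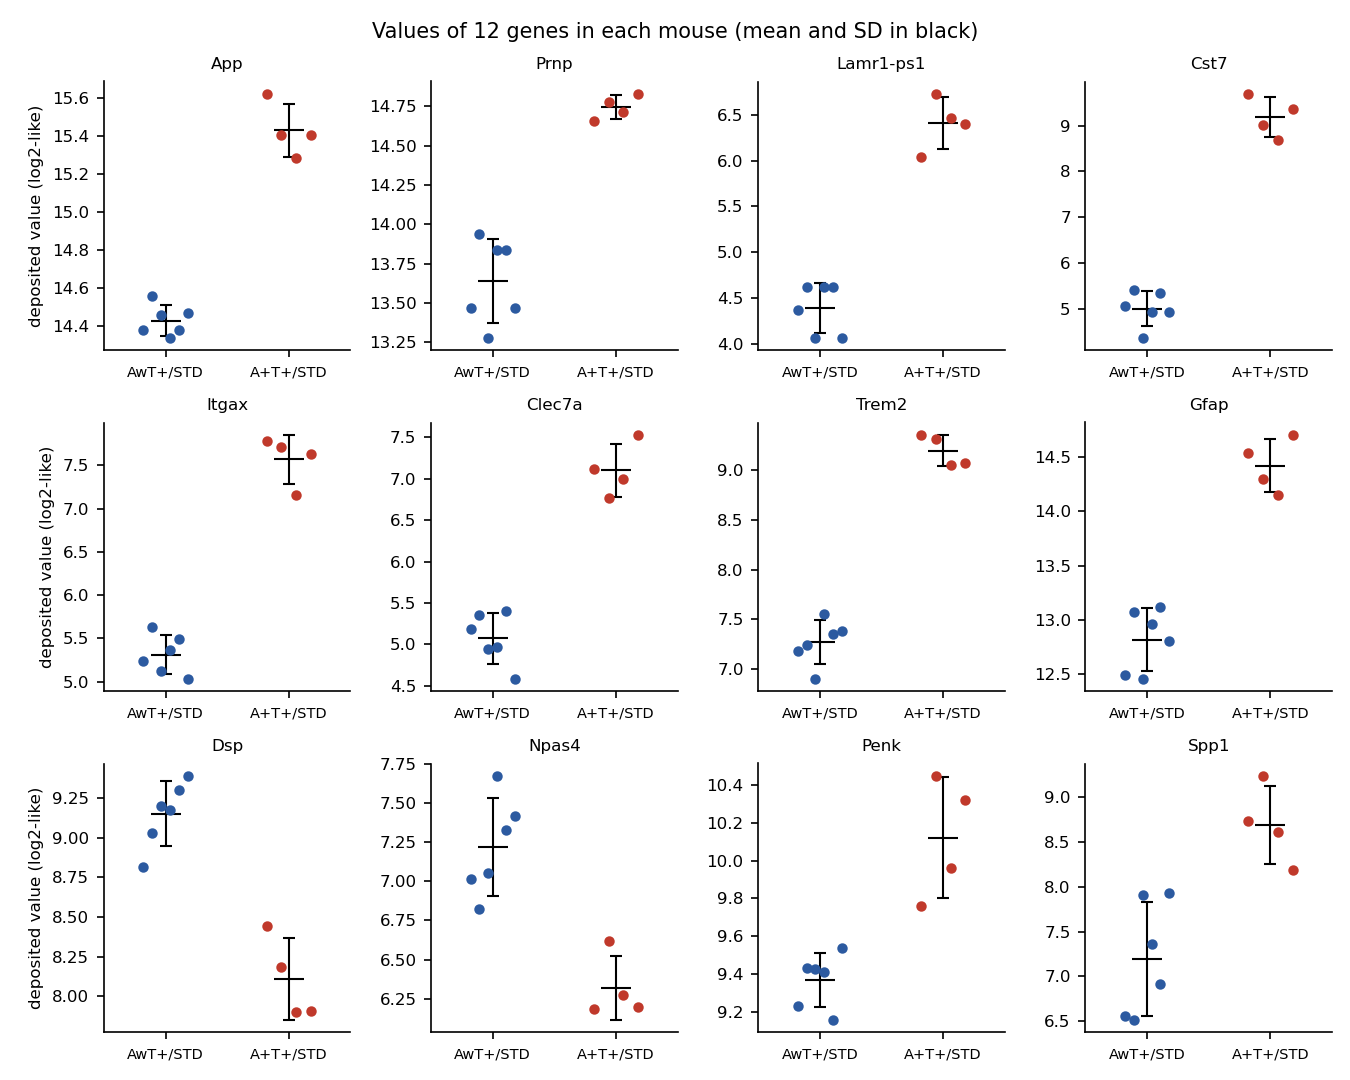
Deposited log2-like value of 12 genes in each of the 6 AwT+/STD mice (blue) and 4 A+T+/STD mice (red), 1 panel per gene with its own vertical axis, with the group mean and SD in black. The groups are separate in every panel, with A+T+/STD above for all genes but Dsp and Npas4, and the widest gap is that of Cst7, from 5.41 to 8.68. All but App, Prnp and Penk met a naming rule that asks for groups without overlap, so their separation is no separate result.

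Across all genes, 146 rose and 5 fell in A+T+/STD mice, which is 0.95% of the genes tested (0.918% higher and 0.0315% lower). At an unadjusted p below 0.05 there were 1137 genes, 813 higher and 324 lower. The median log2 difference over all 15897 genes was -0.01. Among the 151 genes, the values of the groups did not overlap for 144, against 5.66% of all genes (139 of the 146 that rose, against 3.45%). The calls were made from these same values, so the lack of overlap is not separate evidence. Of the 151, 65 stand on at least 1 of the gene lists described here, which share members, and 86 on none. The genes that rose did so by a median of 0.84 on the log2 scale, and 48 rose by at least 1. Without A+T+/STD replicate 2 the count was 93 (92 higher, 1 lower), and with the spread taken from the 10 mice alone it was 284 (1.79% of the genes, 230 higher and 54 lower, the latter 0.34%).

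**Figure D2:**
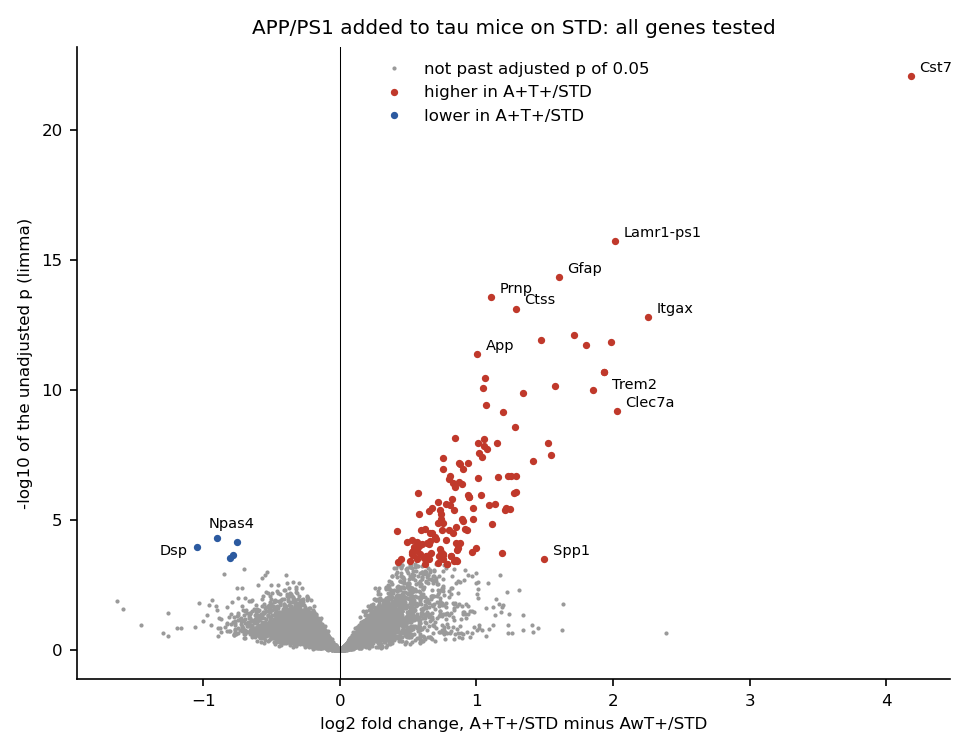
Each point is 1 of 15897 genes, with the log2 fold change (A+T+/STD minus AwT+/STD) on the horizontal axis and -log10 of the unadjusted limma p on the vertical axis. The 146 genes that rose (red) spread up to 4.18 for Cst7, whereas the 5 that fell (blue) end at -1.04 for Dsp.

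The largest difference was that of Cst7, which encodes cystatin F, an inhibitor of lysosomal cysteine proteases. Cst7 read 9.70, 9.01, 8.68 and 9.36 in the A+T+/STD mice and 4.36 to 5.41 (median 5.00) in the AwT+/STD mice, a log2 difference of 4.18 ± 0.20, adjusted p = 1.3e-18. The lowest A+T+/STD mouse was thus above the highest AwT+/STD mouse by more than the whole range of either group. The AwT+/STD values of Cst7 lie near the low values of Lamr1-ps1, where the scale compresses differences. The size of the Cst7 difference is therefore uncertain. Itgax, the integrin CD11c, followed with 7.78, 7.72, 7.16 and 7.64 against 5.03 to 5.63 (median 5.30) and a difference of 2.26 ± 0.21, adjusted p = 4.25e-10. Clec7a, the β-glucan receptor dectin-1, read 7.11, 6.77, 7.00 and 7.53 against 4.58 to 5.41 (median 5.08), a difference of 2.03 ± 0.25, adjusted p = 5.07e-07. Neither gene's groups came near each other, the gap for Clec7a being the narrower.

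Of the 30 DAM genes listed, 17 rose, none fell and 13 did not pass the test, with a median difference of 0.85 against -0.01 over all genes. Over all genes 0.918% rose and 0.0315% fell, the shares to set beside the counts of this and the later lists. The lists were chosen with earlier results of these data known, so their counts are not separate evidence. Lyz2, lysozyme, read 9.47, 9.64, 9.46 and 9.47 against 7.08 to 8.17 (median 7.65) (1.85 ± 0.21, adjusted p = 9.13e-08). Its count cannot be wholly parted from that of Lyz1, which holds 32.8% of its 31-base words. Ccl3, a chemokine that attracts monocytes, read 6.89, 6.85, 6.34 and 6.95 against 4.84 to 5.22 (median 5.04) (1.72 ± 0.17, adjusted p = 1.76e-09), the lowest A+T+/STD mouse being replicate 3. Spp1, osteopontin, read 8.74, 9.24, 8.61 and 8.18 against 6.51 to 7.93 (median 7.14), a difference of 1.50 ± 0.38, adjusted p = 0.035. Its groups came closest at replicate 4 of A+T+/STD and replicate 6 of AwT+/STD. The call of Spp1 was lost for 7 of the 10 mice left out in turn (adjusted p up to 0.299, without A+T+/STD replicate 2), and its difference was 0.75 (adjusted p = 0.601) with a score of pericyte and fibroblast genes in the fit.

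Among 30 microglial genes 21 rose, against 0.918% of all genes, and none fell, with a median of 1.02. The list mean was 9.12, 9.11, 9.01 and 9.07 in the A+T+/STD mice and 7.96 to 8.27 (median 8.17) in the AwT+/STD mice, so the groups were separate. Tyrobp, the signalling adaptor of Trem2, read 10.19, 9.94, 9.87 and 9.77 against 7.56 to 8.35 (median 8.03), a difference of 1.99 ± 0.20, adjusted p = 2.49e-09. Trem2, a receptor for lipids and lipoproteins, read 9.36, 9.31, 9.05 and 9.07 against 6.90 to 7.55 (median 7.30), a difference of 1.93 ± 0.21, adjusted p = 2.53e-08. The values of Trem2 are repeated by a gene without symbol, ENSMUSG00000116470, which is counted among the 146. Cd68, a membrane protein of late endosomes and lysosomes, read 9.98, 9.72, 9.32 and 9.59 against 7.43 to 8.18 (median 7.85) (1.80 ± 0.18, adjusted p = 3e-09), and Ctss, cathepsin S, read 11.12, 11.20, 11.01 and 11.13 against 9.58 to 10.07 (median 9.86) (1.29 ± 0.12, adjusted p = 2.33e-10). Outside the list, Mpeg1, a pore-forming protein of macrophages, rose by 1.53 ± 0.21, adjusted p = 6.44e-06, and Slc15a3, a lysosomal peptide transporter, by 1.57 ± 0.18, adjusted p = 7.17e-08. All 6 were higher in each of the 4 A+T+/STD mice than in any AwT+/STD mouse, and all but Ctss met a naming rule that asks for this.

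The 15 genes listed for homeostatic microglia, which mark resting cells, held 6 that rose, none that fell and 9 that did not pass. Of all genes 0.918% rose. The list median was 0.37. Fcrls read 9.62, 9.47, 9.59 and 9.45 against 8.30 to 8.72 (median 8.40) (1.06 ± 0.14, adjusted p = 4.84e-06). Olfml3 rose by 0.90 ± 0.14, adjusted p = 4.43e-05 and Siglech, a sialic acid binding lectin, by 0.82 ± 0.15, adjusted p = 0.000436. Cx3cr1, the receptor of the neuronal chemokine fractalkine, rose by 0.65 ± 0.12, adjusted p = 0.00101. Of the 15 genes 13 were above 0 and 2 below: P2ry12 (-0.05 ± 0.31, adjusted p = 0.979) and Mef2c (-0.23 ± 0.41, adjusted p = 0.888). Tmem119 differed by 0.37 ± 0.18 (adjusted p = 0.67), Sall1 by 0.12 ± 0.17 (adjusted p = 0.862) and Mertk by 0.01 ± 0.17 (adjusted p = 0.992). These genes that did not pass are named here after their values were seen. The homeostatic median was smaller than that of the DAM list, and the difference between the lists was not tested.

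Of the 14 measured genes of Trem2 signalling 4 rose (median 0.49). Of the 6 measured genes listed under Fc receptors, the receptors of antibody, 4 rose (median 1.06). These 4 include Fcrls, named above, and the signalling chain Fcer1g, so not all of them are antibody receptors. Beside Trem2 and Tyrobp, the signalling genes that rose were Ptpn6, the phosphatase SHP-1, with 8.45, 7.75, 7.59 and 7.88 against 6.38 to 7.12 (median 6.70) (1.22 ± 0.23, adjusted p = 0.000806), and Pik3ap1, an adaptor that binds phosphoinositide 3-kinase, with 6.91, 7.10, 6.72 and 6.43 against 5.78 to 6.51 (median 6.16) (0.67 ± 0.16, adjusted p = 0.024). The groups overlapped for Pik3ap1, and its call was lost for 6 of the 10 mice left out in turn (adjusted p up to 0.28, without A+T+/STD replicate 2). Fcgr2b, the inhibitory Fc receptor, read 8.02, 8.13, 7.92 and 8.37 against 6.40 to 7.17 (median 6.71) (1.34 ± 0.16, adjusted p = 1.12e-07). Fcgr3 rose by 1.07 ± 0.13, adjusted p = 3.09e-07, and Fcer1g, the signalling chain that Fc receptors share, by 1.08 ± 0.15, adjusted p = 1.03e-05.

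Complement, which tags material for uptake, was represented by 15 measured genes, of which 8 rose, against 0.918% of all genes, and none fell (median 0.88). C4b, the fourth component, read 11.54, 11.41, 11.24 and 11.89 against 9.80 to 10.20 (median 9.97), a difference of 1.55 ± 0.23, adjusted p = 1.52e-05, and 48.3% of its 31-base words occur in C4a. C1qa and C1qc, chains of the initiating complex, rose by 1.29 ± 0.22, adjusted p = 0.000252 and 1.28 ± 0.22, adjusted p = 0.000275. C1qa read 11.36, 11.30, 11.06 and 11.07 in the A+T+/STD mice and 9.63 to 10.14 (median 9.95) in the AwT+/STD mice, with no overlap. Of the 12 measured genes of Toll-like receptors and their partners 4 rose (median 0.42). Cd14, the co-receptor for lipopolysaccharide, read 7.19, 7.55, 7.32 and 7.38 against 5.51 to 6.13 (median 5.97) (1.47 ± 0.15, adjusted p = 2.41e-09). Ly86 and Cd180, which form a receptor complex, rose by 1.19 ± 0.15, adjusted p = 5.4e-07 and 0.85 ± 0.18, adjusted p = 0.00362. Tlr2 rose by 0.73 ± 0.17, adjusted p = 0.0185, and its call was lost for 4 of the 10 mice left out in turn (adjusted p up to 0.0878, without A+T+/STD replicate 2). Of 12 chemokine genes 5 rose (median 0.37), among them Ccl6 with 7.14, 7.47, 7.14 and 7.35 against 5.24 to 6.40 (median 5.89) (1.41 ± 0.21, adjusted p = 2.5e-05) and Ccl4 with 1.01 ± 0.16, adjusted p = 8.56e-05. The AwT+/STD values of Ccl4 (4.26 to 5.01) also lie near the low end of the scale.

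Of the 29 genes of cathepsins and lysosomes 14 rose, against 0.918% of all genes, and none fell (median 0.62). Laptm5, a lysosomal membrane protein of haematopoietic cells, read 11.07, 10.97, 10.76 and 10.78 against 9.66 to 10.06 (median 9.83) (1.06 ± 0.15, adjusted p = 7.84e-06), next to Cd68 and Ctss above. The 14 genes of lipid transport had a median of 0.23. Of 20 genes of cholesterol synthesis 1 rose, the squalene synthase gene Fdft1 (0.45 ± 0.11, adjusted p = 0.0358), with a median of 0.17. The call of Fdft1 was lost for 9 of the 10 mice left out in turn, with adjusted p up to 0.136 without A+T+/STD replicate 1.

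Genes of antigen presentation and interferon response were higher in A+T+/STD mice by their medians, and few passed the test. Of 15 genes of antigen presentation all 15 were above 0 (median 0.68), against 47.4% of all genes. For 6 of them the groups did not overlap, against 5.66% of all genes, and 1 rose, against 0.918%. The gene that rose was H2-D1, an MHC class I heavy chain, with 10.43, 10.45, 10.00 and 10.02 against 8.86 to 9.73 (median 9.21) (1.00 ± 0.23, adjusted p = 0.0171). Other genes hold 26.7% of its 31-base words. All 19 interferon-stimulated genes were above 0 (median 0.46), against 47.4% of all genes, and 1 rose: Irf9, a subunit of the transcription factor that interferon activates, with 8.43, 8.03, 7.80 and 7.84 against 7.10 to 7.58 (median 7.45) (0.62 ± 0.16, adjusted p = 0.0341). The call of H2-D1 was lost for 3 of the 10 mice left out in turn (adjusted p up to 0.15, without A+T+/STD replicate 2) and that of Irf9 for 5 (up to 0.282, without A+T+/STD replicate 1). With a score of pericyte and fibroblast genes in the fit neither passed (adjusted p = 0.198 and 0.17), and the medians were 0.36 for antigen presentation and 0.33 for the interferon list. With a choroid plexus score Irf9 did not pass (adjusted p = 0.0633). The members of a list vary together within a mouse, so their common sign is not that many separate results.

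Promoter sequence was available for 110 of the 145 genes with a symbol that rose, in the RefSeq table of GRCm38.p6, which holds 250 bases before and 50 after each start. The letters GAGGAAGT, a core bound by PU.1 and shared by other factors of the ETS family, PU.1 being the transcription factor that specifies macrophages and microglia, were found on either strand for 14 of the 110 genes (12.7%). They were found for 389 of 11615 genes tested with a promoter (3.35%). The interferon response element was found for 6 of the 110 (5.45%, against 3.62% of genes tested) and TCACGTGA, bound by the lysosomal regulator TFEB, for 2 (1.82%, against 2.00%). These are matches of letters and do not show binding. Of the 14, 3 are printed here as the 200 bases before the start, 5′ to 3′ on the strand of the gene, with the matched letters in capitals, since they belong to genes of different roles: osteopontin, a chain of complement C1q and the receptor CD72. They lie at chr5:104434911-104435110 on the plus strand (Spp1), at chr4:136892915-136893114 on the minus strand (C1qc) and at chr4:43454627-43454826 on the minus strand (Cd72).
Spp1: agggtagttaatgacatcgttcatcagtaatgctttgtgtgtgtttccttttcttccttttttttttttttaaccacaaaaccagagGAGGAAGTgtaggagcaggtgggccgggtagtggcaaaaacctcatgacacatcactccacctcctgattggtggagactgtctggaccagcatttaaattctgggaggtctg
C1qc: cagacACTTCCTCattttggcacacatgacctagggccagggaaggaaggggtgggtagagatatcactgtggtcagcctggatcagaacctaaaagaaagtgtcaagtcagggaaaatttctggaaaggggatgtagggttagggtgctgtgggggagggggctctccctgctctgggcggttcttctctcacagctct
Cd72: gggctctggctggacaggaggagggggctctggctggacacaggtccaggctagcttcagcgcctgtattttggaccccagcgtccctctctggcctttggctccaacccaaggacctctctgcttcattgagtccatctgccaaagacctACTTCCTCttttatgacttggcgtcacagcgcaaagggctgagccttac
In Spp1 the letters begin 113 bases before the start, in C1qc 195 and in Cd72 49, and in the last pair they read in the reverse complement. Cd72, a gene chosen here after its values were seen, rose by 0.89 ± 0.18, adjusted p = 0.00187.

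Of 19 genes of reactive astrocytes 7 rose, against 0.918% of all genes, and none fell, with a median of 0.64. Gfap, the filament protein, read 14.54, 14.30, 14.15 and 14.71 against 12.45 to 13.12 (median 12.89), a difference of 1.60 ± 0.13, adjusted p = 2.39e-11. The groups did not overlap. Aspg, an asparaginase, rose by 0.93 ± 0.20, adjusted p = 0.00452, with 7.41, 7.22, 7.06 and 7.23 against 5.94 to 6.68 (median 6.36). Serpina3n, a protease inhibitor secreted by reactive astrocytes, read 10.68, 10.97, 10.38 and 11.20 against 9.68 to 10.33 (median 9.96) (0.86 ± 0.20, adjusted p = 0.0198), and the highest AwT+/STD mouse (10.33) came close to the lowest A+T+/STD mouse (10.38). The call of Serpina3n was lost for 4 of the 10 mice left out in turn (adjusted p up to 0.15, without A+T+/STD replicate 2). Of 14 genes of resting astrocytes none passed, with a median of 0.11. S100b differed by 0.38 ± 0.12 (adjusted p = 0.169) and Gjb6, a gap junction protein, by 0.33 ± 0.19 (adjusted p = 0.794; -0.02 in batch 1 alone). With the pericyte and fibroblast score in the fit, 3 of the 19 reactive genes passed and their median was 0.37.

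**Figure D3:**
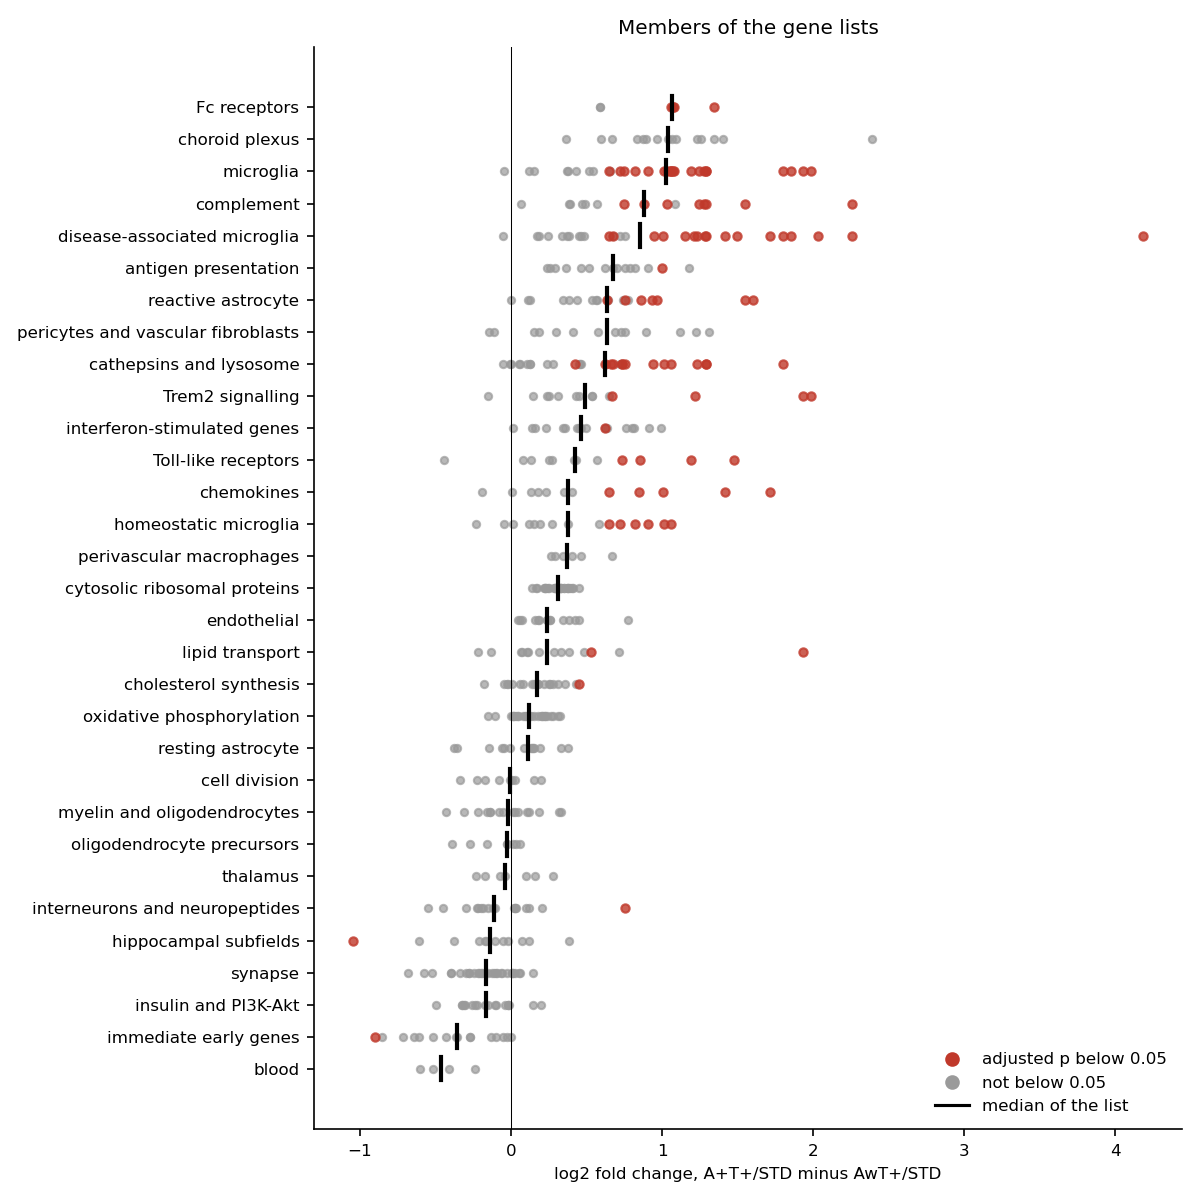
Log2 fold change (A+T+/STD minus AwT+/STD) of each measured member of 31 gene lists, 1 row per list ordered by its median (black bar), with members past an adjusted p of 0.05 in red. Microglial, DAM, complement and lysosomal lists hold most red points, the choroid plexus list has a median of 1.04 with none, and the immediate early list lies wholly below 0.

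The 5 genes that fell were Dsp, Npas4, Gm16551, Rtl3 and Gm5859. Dsp encodes desmoplakin and is expressed by granule cells of the dentate gyrus. It read 8.44, 8.18, 7.90 and 7.90 in the A+T+/STD mice and 8.81 to 9.39 (median 9.19) in the AwT+/STD mice, a difference of -1.04 ± 0.24, adjusted p = 0.0154. Npas4, a transcription factor induced by neuronal activity, read 6.18, 6.62, 6.27 and 6.20 against 6.82 to 7.67 (median 7.19), a difference of -0.90 ± 0.20, adjusted p = 0.00848. No A+T+/STD mouse reached the AwT+/STD range for either gene. Rtl3, derived from a retrotransposon, differed by -0.79 ± 0.19, adjusted p = 0.026, Gm16551 by -0.81 ± 0.20, adjusted p = 0.0337 and Gm5859 by -0.75 ± 0.17, adjusted p = 0.0112, and other genes, mostly Gm17167, hold 93.3% of the 31-base words of Gm5859. The call of Npas4 held with each of the 10 mice left out, while those of the other 4 were each lost for 2 to 6 mice. The highest adjusted p was 0.089 for Dsp (without A+T+/STD replicate 3), 0.164 for Rtl3 (without A+T+/STD replicate 4), and 0.379 for Gm16551 and 0.264 for Gm5859 (both without A+T+/STD replicate 2).

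All 16 immediate early genes, which neurons transcribe within minutes of activity, were below 0, with a median of -0.36, and only Npas4 passed the test. Over all genes 47.4% were above 0. Here and in the other lists the members vary together within a mouse, so a common sign is not that many separate results. Their list mean was 8.60, 8.62, 8.39 and 8.23 in the A+T+/STD mice and 8.68 to 9.17 (median 8.82) in the AwT+/STD mice, with no overlap. With the spread taken from the 10 mice alone, 3 of the 16 fell, against 0.34% of all genes. The list median was -0.03 in A+Tw/STD against AwTw/STD and -0.20 in A+T+/TWD against AwT+/TWD, where 0 members passed.

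None of the synaptic and insulin signalling genes listed passed the test. Of 30 synaptic genes 7 were above 0, against 47.4% of all genes, and the median was -0.16. The list mean was 12.75, 12.59, 12.70 and 12.70 in the A+T+/STD mice and 12.77 to 12.99 (median 12.86) in the AwT+/STD mice, so the groups touched without overlap. Grin2b, the GluN2B subunit of the NMDA receptor, differed by -0.57 ± 0.27 (adjusted p = 0.649), and Shank2, a postsynaptic scaffold protein, by -0.28 ± 0.14 (adjusted p = 0.691). Of 18 genes of insulin and PI3K-Akt signalling 2 were above 0 (median -0.16). With the pericyte and fibroblast score in the fit both medians were -0.10. With the first component of the residuals (nuisance score) in its place, the median was -0.14 for synaptic and -0.03 for insulin signalling genes. Irs2, a substrate of the insulin receptor, differed by -0.30 ± 0.14 (adjusted p = 0.628) and the receptor Igf1r by -0.31 ± 0.16 (adjusted p = 0.744). Of 12 markers of hippocampal subfields, by which the tissue label was checked, all were measured and 1 fell, Dsp, with a median of -0.14. Their list mean was 10.06, 10.00, 9.99 and 9.99 in the A+T+/STD mice and 10.07 to 10.39 in the AwT+/STD mice. The groups thus touched without overlap, with A+T+/STD lower, and this difference was not tested.

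Among 18 genes of interneurons and neuropeptides 1 rose and the median was -0.11. Penk, which encodes the enkephalin precursor, read 9.76, 10.45, 9.96 and 10.32 against 9.16 to 9.54 (median 9.42), a difference of 0.76 ± 0.19, adjusted p = 0.026. The A+T+/STD mice were all above the AwT+/STD mice, and replicate 2 was the highest. Its call was lost for 4 of the 10 mice left out in turn (adjusted p up to 0.264, without replicate 2) and with the pericyte and fibroblast score in the fit (adjusted p = 0.147). Penk differed by 0.02 ± 0.17 in mice without tau and by -0.05 ± 0.17 in tau mice on TWD.

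In oligodendrocytes (16 genes, median -0.02), their precursors (8 genes, median -0.03), the thalamus (7 genes, median -0.04) and cell division (9 genes, median -0.01) no member passed. For these lists the named members with the smallest unadjusted p were Cldn11 (0.32 ± 0.18, adjusted p = 0.783) and Opalin (0.33 ± 0.19, adjusted p = 0.813) of myelin, Olig2 (-0.16 ± 0.11, adjusted p = 0.82) and Vcan (-0.39 ± 0.36, adjusted p = 0.831) of precursors, Plekhg1 (-0.23 ± 0.21, adjusted p = 0.83) and Prkcd (-0.17 ± 0.19, adjusted p = 0.835) of thalamus, and Mcm2 (-0.34 ± 0.29, adjusted p = 0.828) and Rrm2 (-0.22 ± 0.16, adjusted p = 0.82) of cell division. The ribosomal protein genes were all 32 above 0, against 47.4% of all genes, by a median of 0.31, with none past the test. With the nuisance score in the fit their median was 0.11. Rps3 differed by 0.38 ± 0.16 (adjusted p = 0.501) and Rpl32 by 0.45 ± 0.21 (adjusted p = 0.637). Replicate 4 was the lowest A+T+/STD mouse for both. Of 28 genes of oxidative phosphorylation 26 were above 0 (median 0.12), with Cox4i1 at 0.31 ± 0.22 (adjusted p = 0.82) and Atp5e at 0.32 ± 0.24 (adjusted p = 0.82).

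Markers of tissue next to the hippocampus also differed between the mice. The mean of 15 choroid plexus genes was 10.20, 10.02, 9.44 and 10.04 in the A+T+/STD mice and 6.40 to 10.50 (median 9.53) in the AwT+/STD mice, where replicates 2 (6.40) and 4 (7.35) stood apart from the others. The median difference of that list was 1.04, with 0 members past the test, and it was -0.20 in batch 0 and 2.13 in batch 1. Folr1, the folate receptor of choroid epithelium, differed by 1.41 ± 0.86 (adjusted p = 0.818), and Slc13a4, a sulphate transporter of choroid plexus and meninges, by 1.23 ± 0.74 (adjusted p = 0.817), which turned to -0.35 with the fibroblast score in the fit. Pericyte and vascular fibroblast genes averaged 8.33, 8.95, 8.58 and 8.41 against 7.49 to 8.48 (median 7.94), with replicate 2 of A+T+/STD the highest of the 10 mice. Their median difference was 0.63, with 0 of 14 past the test, and with this list's own score in the fit the choroid plexus median was -0.31. Acta2, smooth muscle actin, read 8.32, 9.86, 8.68 and 8.28 against 6.96 to 8.17 (median 7.49) (1.22 ± 0.42, adjusted p = 0.252), and Tagln, transgelin, differed by 1.31 ± 0.44 (adjusted p = 0.223).

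All 15 endothelial genes were above 0 by a median of 0.24, where 47.4% of all genes were above 0. Abcb1a, the blood-brain barrier pump, differed by 0.34 ± 0.11 (adjusted p = 0.211) and Tie1 by 0.45 ± 0.19 (adjusted p = 0.55). All 6 measured genes of perivascular macrophages were above 0 (median 0.37), with Lyve1 at 0.47 ± 0.17 (adjusted p = 0.328) and Cbr2 at 0.67 ± 0.25 (adjusted p = 0.368). The 4 measured globin and blood genes were below 0 (median -0.46), with Hba-a2 at -0.60 ± 0.53 (adjusted p = 0.828) and Hbb-bs at -0.52 ± 0.59 (adjusted p = 0.84; 0.39 in batch 0 alone). Of the 14 lymphocyte and leukocyte genes listed, 0 were among the 15897 genes tested.

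**Figure D4:**
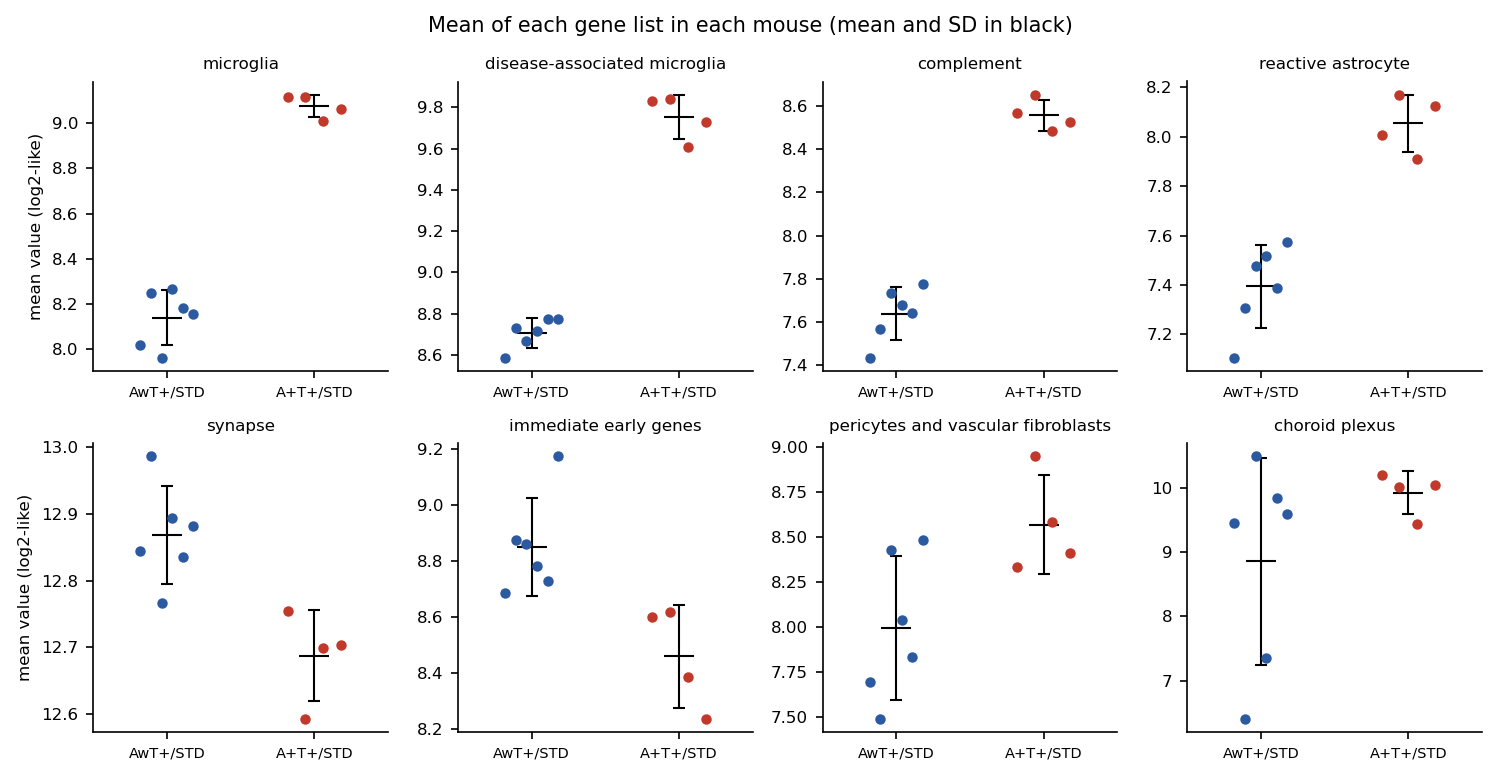
Mean log2-like value of 8 gene lists in each AwT+/STD mouse (blue, 6 mice) and A+T+/STD mouse (red, 4 mice), with the group mean and SD in black and a separate vertical axis per panel. The microglial, DAM, complement and reactive astrocyte means are apart between the groups, the pericyte and fibroblast means overlap with A+T+/STD replicate 2 the highest (8.95), and AwT+/STD replicates 2 and 4 have the lowest choroid plexus means (6.40 and 7.35).

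With the pericyte and fibroblast score of each mouse as a further covariate, 99 genes passed (98 higher, 1 lower), and 53 of the 151 calls were lost. The microglial list then had 20 of 30 genes higher (median 0.99), the DAM list 15 of 30 (median 0.72), complement 6 of 15 (median 0.67) and the lysosomal list 11 of 29 (median 0.44). With the choroid plexus score as covariate 127 genes passed. The genes that rose had a median of 0.79 with the fibroblast score, against 0.84 without it. The medians that fell most among the lists with called genes were those of reactive astrocytes, from 0.64 to 0.37, and antigen presentation, from 0.68 to 0.36. Of lists with no called gene, that of endothelial cells went from 0.24 to 0.08 and that of perivascular macrophages from 0.37 to 0.14. The microglial median stayed near its 1.02, and the part of the markers in single differences was not tested.

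The same transgenes were compared in mice that share no animal with the 10 mice and had the same age, sex and strain. The spread of each gene came from the same fit, so calls shared between comparisons are not independent of each other. A+Tw/STD (5 mice, only 1 of them in batch 0) against AwTw/STD (6 mice), without tau P301L, gave 147 genes (0.925% of those tested, 146 higher and 1 lower). Of these 105 were shared with the same direction, which is 69.5% of the 151 and 71.4% of the 147. Of the 146 genes that rose in tau mice 145 were above 0 without tau, where 70.6% of all genes had the same sign, and their median was 0.74 against 0.84. A+T+/TWD (6 mice) against AwT+/TWD (6 mice) gave 121 genes (0.761%, 117 higher and 4 lower). Shared calls numbered 89, which is 58.9% of the 151 and 73.6% of the 121, and 143 of the 146 were above 0, where 62.5% of all genes had the same sign, with a median of 0.62. The 146 genes were chosen by their values in tau mice on STD, which tends to raise their median there. The smaller medians in the other mice therefore do not show a weaker effect. In all 3 comparisons 85 genes were called with the same sign. Cst7 differed by 4.31 ± 0.19 without tau and 3.89 ± 0.19 on TWD, Trem2 by 1.95 ± 0.20 and 1.70 ± 0.19, and Gfap by 1.50 ± 0.12 and 1.44 ± 0.12. The microglial list had medians of 1.02, 0.90 and 0.85 in tau mice on STD, mice without tau on STD and tau mice on TWD. In the same order the pericyte and fibroblast list had 0.63, -0.11 and -0.03, and the choroid plexus list 1.04, 0.45 and 0.78.

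**Figure D5:**
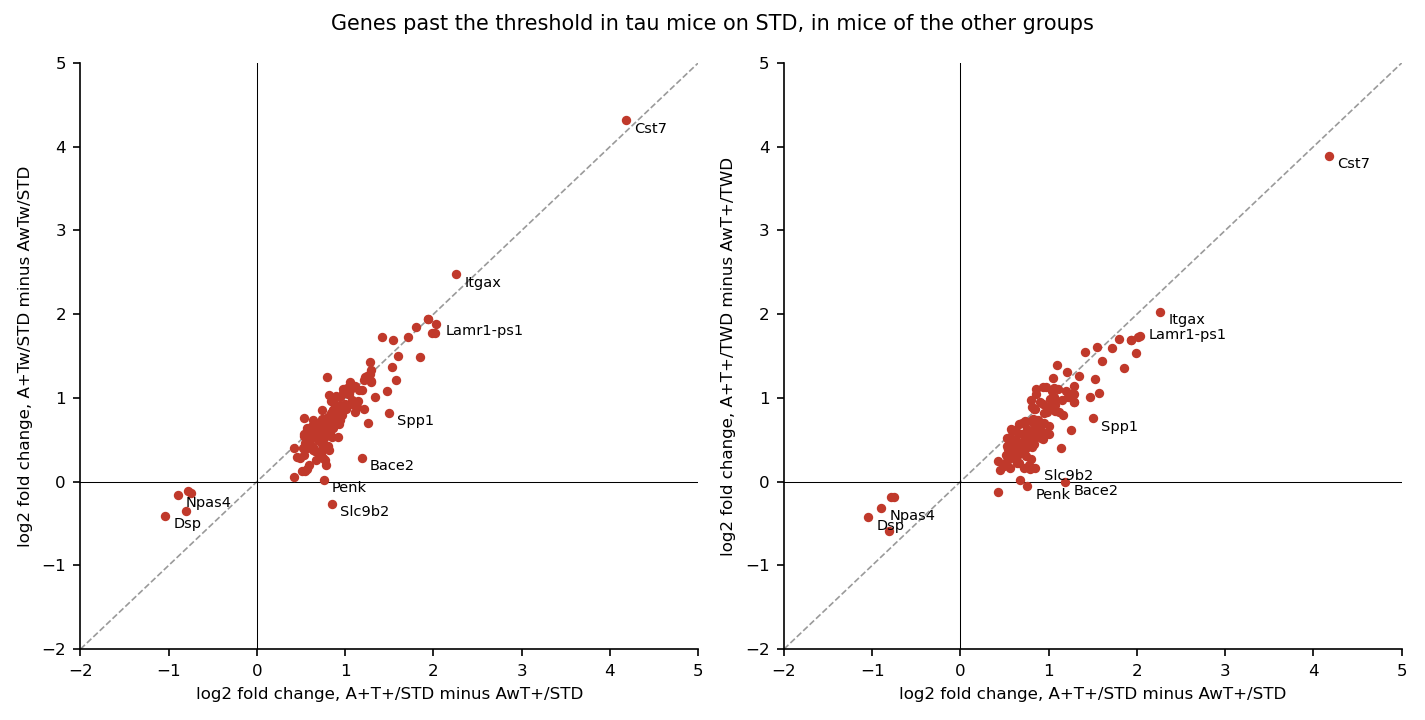
Log2 fold changes of the 151 genes past the threshold in tau mice on STD (horizontal axis) against their log2 fold changes in mice without tau on STD (left) and in tau mice on TWD (right), with the line of equal change dashed. Most points lie above 0 and somewhat below the line, while Penk lies at 0.02 on the left and -0.05 on the right. The genes were chosen by the comparison on the horizontal axis, which tends to place points below the line.

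Of the 151 genes 42 passed in neither other comparison, 37 that rose and all 5 that fell. Bace2, a protease related to β-secretase, and Serpinf1, which encodes pigment epithelium-derived factor, are named here after their values were seen. Bace2 rose by 1.19 ± 0.29, adjusted p = 0.0244 and differed by 0.28 without tau and -0.01 on TWD. Serpinf1 rose by 0.78 ± 0.21, adjusted p = 0.0495 and differed by 0.20 and 0.16, its groups overlapping. With the fibroblast score in the fit the adjusted p was 0.431 for Bace2 and 0.787 for Serpinf1. Slc9b2, a sodium/proton exchanger, read 7.18, 7.12, 6.86 and 6.74 against 5.86 to 6.47 (median 6.08) (0.85 ± 0.22, adjusted p = 0.0383) and differed by -0.27 ± 0.20 without tau and 0.17 ± 0.20 on TWD. Eci2, an enzyme of fatty acid oxidation, read 9.39, 9.55, 9.17 and 9.45 against 8.82 to 9.15 (median 8.94) (0.42 ± 0.089, adjusted p = 0.00487), with 0.06 ± 0.084 and -0.12 ± 0.081 in the other comparisons. The call of Slc9b2 was lost for 8 of the 10 mice left out in turn (adjusted p up to 0.218, without A+T+/STD replicate 2), and that of Eci2 for 1 (0.0792, without the same mouse).

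Passing in a comparison and not in another does not show that the effects differ, so the difference was tested as an interaction. The effect of APP/PS1 in tau mice minus that in mice without tau passed for 0 genes in limma (298 at an unadjusted p below 0.05), and the effect on TWD minus that on STD in tau mice for 0 (346 unadjusted). In the former the smallest unadjusted p were those of Slc9b2, with a difference of effects of 1.12 ± 0.30 (adjusted p = 1.00), and Lyve1, a receptor of perivascular macrophages and lymph vessels, with 0.86 ± 0.23 (adjusted p = 1.00). In the latter they were those of Eci2, with -0.54 ± 0.12 (adjusted p = 0.883), and Abcb1a, with -0.54 ± 0.15 (adjusted p = 0.999).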

How the data were processed

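Hippocampal poly(A) RNA of 45 mice was sequenced as single reads. The authors trimmed reads (Trimmomatic 0.38), removed rRNA and mitochondrial reads (Bowtie2 2.2.3), quantified mouse transcripts (kallisto 0.44.0, submitters' notes: mm10), summed them per gene (tximport 1.10.1), dropped genes with low counts, transformed the counts (DESeq2 1.22.2) and removed batch (limma 3.38.3). The deposited values are on this log2-like scale, which compresses differences of genes with low counts. In the table every gene has the same mean in both batches, and 160 of the 15897 genes repeat the values of an earlier gene. The authors' counts, depths and own comparisons were not used here, and 0 sample columns were left unused.

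A linear model of the 8 groups with batch as a covariate was fitted to all genes with limma 3.58.1 in R 4.3.3 (empirical Bayes with a mean trend, 36 residual degrees of freedom). Tests are two-sided, adjusted by Benjamini-Hochberg over all genes. Groups come from the labelled genotype and diet. Symbols, coordinates and 31-base words shared between transcripts come from GENCODE M21 (GRCm38), where 15695 genes have a symbol. Lists are described by counts and medians. Tables and plots were made with Python 3.11.15, pandas 2.3.3, numpy 2.4.6 and matplotlib 3.10.9.

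The genes named are App, Prnp, Mapt and Camk2a, the 15 highest and at most 10 lowest log2 fold changes among genes past the threshold whose groups do not overlap, up to 4 members of each list past the threshold or else 2, and the 2 smallest p of each interaction. A few genes that this rule names are not reported here. The comparison, lists and motifs were chosen with earlier results of these data known. The alternatives tried were a fit without batch, either batch by itself, only the groups compared, the prefix of the mouse labels, a nuisance score (the first component of the residuals), a choroid plexus or fibroblast score as covariate (the fibroblast score chosen after seeing the data), quantile normalization, genes above the 25th percentile, no trend, repeated genes counted once, and each mouse left out.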

Additional observations from a re-analysis of the deposited data

Results flagged for a closer look

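The values of the 80 named genes were checked in each group for a mouse far from the rest, and 8 of 160 gene and group pairs were found, while chance gives about 1 in 20. In A+T+/STD mice, Lyz2 was high in replicate 2 (9.64, the others 9.46 to 9.47), Ccl3 low in replicate 3 (6.34, the others 6.85 to 6.95), Gm16551 low in replicate 2 (4.37, the others 4.89 to 5.00) and Plekhg1 high in replicate 2 (7.98, the others 7.64 to 7.69). In AwT+/STD mice, Tlr2 was low in replicate 2 (5.42, the others 5.79 to 5.93), S100b low in replicate 3 (10.63, the others 10.82 to 10.93), Cldn11 high in replicate 3 (10.70, the others 10.15 to 10.35) and Atp5e low in replicate 5 (9.18, the others 9.37 to 9.43). The call of Gm16551 was lost for 6 of the 10 mice left out in turn and that of Tlr2 for 4. Without the mouse that stood apart the adjusted p was 0.379 for Gm16551 and 0.0809 for Tlr2.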

How the results depend on the processing

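The 151 genes past the threshold numbered 60 in batch 0 alone (58 higher, 2 lower), 31 in batch 1 alone (31 higher, 0 lower), 284 with only the 2 groups in the fit (230 higher, 54 lower), 94 among genes above the 25th percentile (91 higher, 3 lower; 11922 genes tested), 242 with the nuisance score (203 higher, 39 lower), and 99 with the fibroblast score (98 higher, 1 lower). With the choroid plexus score 3 genes were lower. Leaving out single mice gave 93 to 167 genes, 92 to 162 higher and 1 to 6 lower. The lowest total (93) came without A+T+/STD replicate 2, and the lower genes numbered 1 without A+T+/STD replicate 2 or 3 and 3 without A+T+/STD replicate 4 or AwT+/STD replicate 4. Calls shared with A+Tw/STD against AwTw/STD numbered 5 in batch 0, which holds 1 A+Tw/STD mouse, 29 in batch 1, 64 above the 25th percentile and 81 to 105 without single mice. Those shared with A+T+/TWD against AwT+/TWD numbered 39, 20, 59 and 75 to 90. The causes were not tested, beyond the fewer mice or genes of these fits. Both interactions stayed at 0 genes in the alternatives run. Of the 50 named genes past the threshold 35 passed with each mouse left out and 16 passed in every alternative in which they were tested. Only 63 of the 80 named genes were tested among genes above the 25th percentile. Of 1743 values of named genes 3 changed sign: Gjb6 in batch 1 alone (-0.023), Hbb-bs in batch 0 alone (0.39) and Slc13a4 with the fibroblast score (-0.35). The groups hold different animals and the labels give no pairing between them, so no paired analysis was made. The unknown depth limits what can be said of genes with low values.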
